A study of Homo sapiens with 26 samples.

Results

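Guides against PAX3, FOXO1 and MYOD1 became scarcer than control guides between day 3 and day 18 in cultured RH4 cells. Their values differed by gene in size, in spread over guides and in the cells sorted at day 7. The comparison uses 2 of the 26 samples of the series, both from the exon scan library: 1 sample taken 3 days after infection and 1 taken 18 days after it, without a sort. All 1619 guides of the library were used. They fall under 13 names in the gene column: 357 guides for FOXO1, 249 for PAX3, 186 for MYOD1, 790 negative controls named Neg_ctrl, and 37 guides spread over CDK1, CDK9, PCNA, POLR2A, POLR2D, PRL9, RPA3, RPL23A and hRosa.

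RH4 is an established alveolar rhabdomyosarcoma line, and its labels give the genotype as PAX3-FOXO1+. Both samples carry the fusion, and both are pools of infected cells in RPMI medium with 10% fetal bovine serum. The day 3 cells were taken before drug selection to record the starting guide representation, and the day 18 cells after it, so selection is confounded with time. The cassette that encodes the guide was amplified from genomic DNA and counted, so a value reports how many cells carry a guide, not expression. Each day is 1 sample with no replicate, so no test between the days was possible. Errors given below are the spread over guides, which share a target and a culture and are not repeats of the experiment.

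As background, a guide that disrupts a gene needed for growth is diluted out as its carriers divide more slowly, die or leave the cycle. PAX3 and FOXO1 are joined by a translocation in alveolar rhabdomyosarcoma into a transcription factor that keeps the DNA-binding part of PAX3 and the activation part of FOXO1, and that holds muscle-lineage cells in a growing state. Guides in the parts of either gene that the fusion does not keep do not cut the fusion gene. MYOD1 is a basic helix-loop-helix factor that specifies the muscle lineage and is expressed in rhabdomyosarcoma. A guide library that scans exons holds many guides for each gene, which differ in cutting efficiency and in what a small in-frame change does to the protein.

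The samples held 41345356 counts at day 3 and 45315539 at day 18. No guide had a count of 0, and the median guide had 23648 counts at day 3 and 25128 at day 18. The lowest count on both days belonged to MYOD1_61, with 46 and then 16 counts. The library became less even with time: the count at the 90th percentile of guides was 4.08 times that at the 10th on day 3 and 6.99 times on day 18. Counts were scaled to counts per 1000000 (CPM), and the value of a guide is the log2 ratio of CPM + 1 at day 18 over day 3, minus the median of that ratio over the Neg_ctrl guides. A value of -1 is a 2-fold lower level relative to the controls. The counting error of a control guide was 0.012 at the median on this scale, far under the SD of 0.23 over the 790 control guides. PCR reads without molecular identifiers are not independent molecules, so this error and the intervals below cover counting only.

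The summed counts show the shift before any centring. Neg_ctrl guides made up 55.9% of all counts at day 3 and 67.2% at day 18. PAX3 guides went from 15.0% to 10.3%, FOXO1 guides from 19.6% to 15.4% and MYOD1 guides from 7.10% to 4.90%. The 3 genes thus had lower shares on the later day, while the controls had a higher one.

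The range of the controls was taken as the 2.5th to the 97.5th percentile of Neg_ctrl, which ran from -0.34 to 0.52. A guide below -0.34, a 1.26-fold lower level, is called depleted here. By construction 20 of 790 Neg_ctrl guides were depleted, and over the whole library 575 of 1619 guides were, which is 35.5%. For MYOD1 148 of 186 guides were depleted, or 79.6% (exact binomial 95% interval 73.1 to 85.1%). For PAX3 it was 182 of 249, or 73.1% (67.1 to 78.5%), and for FOXO1 202 of 357, or 56.6% (51.3 to 61.8%). All 3 shares lay above the library's 35.5%, and the interval of FOXO1 lay below those of both other genes. The library share counts the 790 controls and the 3 genes themselves. Over the 829 guides other than Neg_ctrl it was 66.9%, above the share of FOXO1 and below those of PAX3 and MYOD1. These intervals treat guides as independent draws.

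The order of the genes was different for strong depletion. A value of -1 or lower was reached by 274 guides of the library, or 16.9%, and by 0 of 790 Neg_ctrl guides, which allows a share of up to 0.466% (exact binomial upper bound). Of the PAX3 guides 110 reached it, or 44.2% (37.9 to 50.6%), of the MYOD1 guides 66, or 35.5% (28.6 to 42.8%), and of the FOXO1 guides 91, or 25.5% (21.0 to 30.3%). Over the 829 guides other than Neg_ctrl the share was 33.1%, above that of FOXO1 and below those of PAX3 and MYOD1. A value of -2 or lower, a 4-fold lower level, was found for 49 guides of the library, or 3.03%. Of these 49, 30 were PAX3 guides, 10 FOXO1 guides and 7 MYOD1 guides. That is 12.0% of the PAX3 guides (8.28 to 16.8%), 2.80% of the FOXO1 guides (1.35 to 5.09%) and 3.76% of the MYOD1 guides (1.53 to 7.60%). Over the 829 guides other than Neg_ctrl the share was 5.91%, below that of PAX3 and above those of FOXO1 and MYOD1. The share of PAX3 guides was therefore lower than that of MYOD1 at the limit of -0.34 and higher at -2. The intervals of PAX3 and MYOD1 overlap for the limits of -0.34 and -1 and not for -2.

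PAX3, the DNA-binding part of the fusion, had the largest SD over guides of the 3 scanned genes. The value at the median guide was -0.84 (SD 0.76 over 249 guides), a 1.78-fold lower level. The middle 50% of guides ran from -1.44 to -0.32, the lowest 10% lay under -2.09 and the highest 10% above -0.11. Of its guides 240 of 249 were below 0, as were 70.9% of the library, and 159 (63.9%) lay below the lowest of all control guides, at -0.53, as did 28.4% of the library. Of the 829 guides other than Neg_ctrl 753 were below 0.

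The guide PAX3_95 had the lowest value of the PAX3 guides. It had 220.4 CPM at day 3 (9113 counts) and 23.0 CPM at day 18 (1042 counts), a value of -3.43 and a 10.8-fold lower level. PAX3_143 had 127.9 CPM at day 3 and 13.7 CPM at day 18, a value of -3.36. The next guides in order were PAX3_146 at -2.78, PAX3_83 at -2.70 and PAX3_181 at -2.61. These 5 guides started between 127.9 and 636.0 CPM, so the strongest depletion was seen in guides of quite different starting level. PAX3_197 was the 1 PAX3 guide above the control range, in a library where 1.61% of guides lay above it. It had 622.6 CPM at day 3 and 1210.5 CPM at day 18, a value of 0.73, and the next highest were PAX3_183 at 0.20 and PAX3_249 at 0.18.

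FOXO1, whose 3' part supplies the activation domain of the fusion, had the weakest depletion of the 3 genes at the median guide and the single most depleted guide of the library. The median guide had a value of -0.42 (SD 0.65 over 357 guides), a 1.34-fold lower level. The middle 50% ran from -1.01 to -0.14 and the highest 10% lay above 0.07. Within the control range lay 151 of 357 FOXO1 guides (42.3%), against 66 of 249 PAX3 guides (26.5%) and 38 of 186 MYOD1 guides (20.4%).

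FOXO1_252 had the lowest value of all 1619 guides. It had 249.1 CPM at day 3 (10298 counts) and 12.1 CPM at day 18 (549 counts), a value of -4.48 and a 22.3-fold lower level. A gap separates it from FOXO1_154 at -2.61, FOXO1_238 at -2.58, FOXO1_17 at -2.36 and FOXO1_288 at -2.23. Above the control range lay 4 FOXO1 guides, or 1.12%, a smaller share than the 1.61% of the library. FOXO1_103 went from 306.0 to 997.4 CPM, a value of 1.47 and a 2.78-fold higher level. FOXO1_277 had 1.43, from 92.0 to 293.2 CPM, and FOXO1_222 had 0.96. Such high values were also seen among the controls, so they are not particular to FOXO1: 7 of 639 Neg_ctrl guides with names that start with HGLibA were at least 2-fold higher, and HGLibA_14367 had 1.55, from 773.8 to 2650.4 CPM.

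MYOD1, the muscle lineage factor, had the smallest SD over guides of the 3 scanned genes. The median guide had a value of -0.78 (SD 0.60 over 186 guides), a 1.72-fold lower level, close to that of PAX3. The order-statistic 95% interval of the median was -0.90 to -0.70 for MYOD1 and -1.02 to -0.69 for PAX3, which overlap, and -0.49 to -0.35 for FOXO1. The middle 50% of MYOD1 guides ran from -1.18 to -0.43, a narrower span than that of PAX3. Of its guides 175 of 186 were below 0, as were 70.9% of the library and 753 of the 829 guides other than Neg_ctrl. Below the lowest control guide lay 129 (69.4%), against 28.4% of the library.

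MYOD1_186 had the lowest value of the MYOD1 guides, with 729.1 CPM at day 3 (30146 counts) and 101.9 CPM at day 18 (4616 counts). Its value was -3.06, an 8.32-fold lower level. After it came MYOD1_111 at -2.32, MYOD1_165 at -2.31, MYOD1_169 at -2.22 and MYOD1_96 at -2.15. No MYOD1 guide lay above the control range, where 1.61% of the library did. The highest were MYOD1_118 at 0.51, from 438.6 to 730.4 CPM, then MYOD1_73 at 0.47 and MYOD1_9 at 0.35. MYOD1_61, the guide of lowest count, had 1.11 CPM at day 3 and 0.35 CPM at day 18. Its value of -0.87 therefore depends strongly on the 1 CPM added to each. The counting error of 0.42 comes from its raw counts and does not cover this, so the guide is measured far less well than the others.

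The limit at -0.34 falls in a dense part of the distribution. For PAX3 the guides just below it were PAX3_190 and PAX3_56, both at -0.35, and those just inside the range were PAX3_239 and PAX3_189, both at -0.33. For FOXO1 the pair below was FOXO1_245 and FOXO1_313, both at -0.34, and the pair inside was FOXO1_197 at -0.34 and FOXO1_51 at -0.33. For MYOD1 they were MYOD1_72 and MYOD1_17, both at -0.34, against MYOD1_51 at -0.33 and MYOD1_80 at -0.27. Guides on either side of the limit differed by less than the spread of the controls, so the shares of depleted guides depend on where the limit is set. With the lowest control guide at -0.53 as the limit, the share was 69.4% for MYOD1, 63.9% for PAX3 and 43.4% for FOXO1, in the same order.

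The loss of FOXO1 guides differed with their starting abundance, and that of PAX3 and MYOD1 guides less so. This was examined after the values were seen. When each gene's guides were divided into 3 equal groups by CPM at day 3, the 119 FOXO1 guides of the lower group (16.8 to 364.4 CPM) had a median value of -0.21 and 34.5% were depleted. The 119 of the middle group had -0.46 and 60.5%, and the 119 of the upper group (648.6 to 1620.5 CPM) had -0.88 and 74.8%. PAX3 had medians of -0.87, -0.99 and -0.66, and MYOD1 -0.63, -0.87 and -0.89. The Neg_ctrl guides had 0.01, -0.02 and 0.01, so the shift by abundance in FOXO1 was not present in the controls. The controls were more scattered at low abundance, with an SD of 0.28 in the lower group and 0.17 in the upper.

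The genes were therefore also compared in shared abundance bands, each with the 2.5th percentile of the controls in that band as its limit. Among guides of at least 790.9 CPM at day 3 the shares of depleted guides were 80.8% for FOXO1 (63 of 78 guides, 70.3 to 88.8%) and 75.9% for PAX3 (41 of 54, 62.4 to 86.5%). Between 545.2 and 790.9 CPM they were 68.9% (51 of 74) and 68.8% (55 of 80). Among guides under 545.2 CPM they were 40.5% for FOXO1 (83 of 205, 33.7 to 47.5%), 76.5% for PAX3 (88 of 115, 67.7 to 83.9%) and 75.8% for MYOD1 (113 of 149, 68.2 to 82.5%). The intervals of FOXO1 and PAX3 overlapped in the high and middle bands and did not overlap in the low band, so the difference in share between these genes lay in the less abundant guides. By the median value FOXO1 was also the weaker in the middle band, at -0.53 against -0.78 for PAX3, and had -0.98 against -0.68 in the high band. MYOD1 had 83.9% depleted in the middle band (26 of 31, 66.3 to 94.5%) with a median of -0.89, and 4 of 6 guides in the high band. The low band holds more FOXO1 guides than the other bands together. The sequence or exon of these guides was not used here, and the part that abundance plays in the result was not tested.

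The small target sets are, by their names and apart from PRL9, genes that dividing cells need in general, and they are set beside the 3 scanned genes. The 8 targets with 2 to 8 guides held 36 guides, of which 23 were depleted, or 63.9% (46.2 to 79.2%), against 35.5% of the library. Over all guides other than Neg_ctrl that share was 66.9%. A value of -1 or lower was reached by 7 of the 36 (19.4%, 8.19 to 36.0%). This compares with 16.9% of the library and 33.1% of the 829 guides other than Neg_ctrl. The median guide had -0.48 (SD 0.62). The interval for depleted guides overlapped those of all 3 scanned genes. At the limit of -1 it overlapped those of MYOD1 and FOXO1 and lay below that of PAX3.

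CDK1, the kinase that drives entry into mitosis, had 4 of 5 guides depleted. CDK1_e5.1 had 431.8 CPM at day 3 and 220.6 at day 18, a value of -1.19, and CDK1_e4.1 had -1.11. CDK1_e7.1 had -0.81 and CDK1_e6.1 had -0.53, while CDK1_e3.1 had 0.09 and lay among the controls. CDK9, the kinase of the elongation factor P-TEFb, had the weakest depletion of these sets, with 2 of 6 guides depleted: CDK9_e5.2 at -0.59 and CDK9_e2.1 at -0.54. The other 4 CDK9 guides ran from -0.32 to 0.05.

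PCNA, the ring that tethers DNA polymerase to its template, had 3 of 4 guides depleted and 1 of them far beyond the rest. PCNA_e3.2 had 668.0 CPM at day 3 and 187.7 at day 18, a value of -2.05, while PCNA_e2.1 had -0.58, PCNA_e2.2 had -0.37 and PCNA_e3.1 had -0.03. RPA3, the smallest subunit of the single-strand binding protein RPA, had 2 of 4 guides depleted. RPA3_e1.1 had -1.12 and RPA3_e1.3 had -0.90, but RPA3_e2.1 had -0.20 and RPA3_e1.2 had 0.48, from 318.9 to 522.2 CPM.

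POLR2A encodes the largest subunit of RNA polymerase II, and 6 of its 8 guides were depleted. POLR2A_e10.1 had the lowest value, -1.16, from 741.9 to 388.7 CPM, and POLR2A_e2.1 had -0.85. The next 4, from POLR2A_e28.2 to POLR2A_e27.1, lay between -0.44 and -0.34, just outside the control range. POLR2A_e27.2 stood apart at 1.20, from 294.8 to 794.1 CPM, a 2.29-fold higher level. POLR2D, another subunit of the same enzyme, had POLR2D_e2.1 at -0.56 and POLR2D_e3.1 at -0.14. Both POLR2D_e2.1 and CDK9_e2.1 carry the label neg_ctrl in the separate test library of the series, although both lay below the lowest of the 790 Neg_ctrl guides here. Of 52 guide names that both libraries share, 3 differ in label; the other one is hRosa.

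RPL23A, a protein of the large ribosomal subunit, had RPL23A_e3.1 at -0.58, RPL23A_e2.2 at -0.52 and RPL23A_e2.1 at -0.03. The target spelled PRL9 matched no gene symbol in the RefSeq gene table and is given as spelled. It had the lowest median of the 13 targets, -0.95 over 4 guides, with PRL9_e4.2 at -2.05 (492.0 to 138.7 CPM), PRL9_e4.1 at -1.03, PRL9_e3.2 at -0.87 and PRL9_e3.1 at -0.07. The single hRosa guide had 512.6 CPM at day 3 and 530.9 at day 18, a value of -0.18 inside the control range. In each of the 8 small target sets at least 1 guide lay inside the control range beside others below it.

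The controls themselves are of several kinds by name, and they behaved alike at the median. The 639 guides with names that start with HGLibA had a median of 0.00 (SD 0.23), the 96 that start with neg 0.03 (SD 0.19) and the 54 that start with chr -0.02 (SD 0.17). The labels do not say what each kind targets. The lowest controls were HGLibA_14404 at -0.53 and HGLibA_14346 at -0.50, and the highest were HGLibA_14367 at 1.55 and HGLibA_14527 at 1.18. The upper tail was longer than the lower: all 7 Neg_ctrl guides that were at least 2-fold higher at day 18 had HGLibA names, and 0 controls were 2-fold lower.

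The cells sorted 7 days after infection by staining of MYH, the myosin heavy chain of differentiated muscle, give a time between both days for the same guides. The labels do not say whether they came from the same infection, and the fraction of cells in each gate was not used here. In MYH low cells against day 3, 427 of 1619 guides (26.4%) lay below the control range for that ratio. For PAX3 it was 159 of 249 guides (63.9%, 57.6 to 69.8%), for FOXO1 172 of 357 (48.2%, 42.9 to 53.5%) and for MYOD1 68 of 186 (36.6%, 29.6 to 43.9%). Of the 3 genes, PAX3 thus had the largest share below the range in MYH low cells. MYOD1, the most often depleted at day 18, had the smallest. A guide can be scarcer in MYH low cells because its carriers were lost or because they moved into the MYH high gate. The ratio of MYH high over MYH low differed by gene: PAX3 guides had a median of 0.28, MYOD1 guides 0.09 and FOXO1 guides 0.17. This ratio to day 3 therefore does not give the time of loss, and the part of the gate was not tested.

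Size gave the same order of genes as the shares in MYH low cells. In MYH low cells the median value was -0.40 for PAX3 (SD 0.43), -0.23 for FOXO1 (SD 0.32) and -0.19 for MYOD1 (SD 0.21). A value of -1 or lower was reached by 32 PAX3 guides, 9 FOXO1 guides and 1 MYOD1 guide, and by 42 guides (2.59%) of the library. In MYH high cells against day 3, 192 guides of the library (11.9%) lay below the control range, among them 28.1% of the PAX3, 18.8% of the FOXO1 and 16.1% of the MYOD1 guides. A value of -1 or lower was reached there by 4 guides of the library (0.247%), 2 of them for PAX3. PAX3 had a median of -0.15 there, FOXO1 -0.11 and MYOD1 -0.11. The ratios to day 3 share the day 3 sample, so they are not independent of each other.

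From day 7 MYH low cells to day 18 the order was different, and this ratio also depends on the sort gate. The median value was -0.63 for MYOD1 (SD 0.52), -0.46 for PAX3 (SD 0.41) and -0.26 for FOXO1 (SD 0.41). The share below the control range of this ratio was 74.7% for MYOD1 (67.9 to 80.8%), 66.7% for PAX3 (60.4 to 72.5%) and 46.8% for FOXO1 (41.5 to 52.1%), against 31.6% of the library. A value of -1 or lower was found for 45 MYOD1 guides (24.2%), 31 PAX3 guides (12.4%) and 14 FOXO1 guides (3.92%), against 5.74% of the library. Single guides did not all follow this order: the lowest value of this ratio was -3.11 among FOXO1 guides and -2.53 among MYOD1 guides. PAX3_95 had -1.49 at day 7 in MYH low cells and -3.43 at day 18. PAX3_143 had -1.81, the lowest of the PAX3 guides in MYH low cells, and -3.36. FOXO1_252 had -1.38 and -4.48, and FOXO1_238 had -1.47 and -2.58. MYOD1_186 had -0.53 and -3.06, and MYOD1_111 had -0.49 and -2.32. In MYH high cells at day 7 these guides did not divide by gene. There PAX3_95 had -0.49, PAX3_143 -0.77, FOXO1_252 -0.88, FOXO1_238 -0.37, MYOD1_186 -0.83 and MYOD1_111 -0.59.

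PCNA_e3.2 had -0.66 in MYH low cells at day 7, -0.08 in MYH high cells and -2.05 at day 18. For PRL9_e4.2 these values were -0.50, -0.34 and -2.05. Of the 7 MYOD1 guides with a value of -2 or lower at day 18, the values in MYH low cells at day 7 ran from -0.61 to -0.39. Of the 30 such PAX3 guides they ran from -1.81 to -0.57, and of the 10 such FOXO1 guides from -1.72 to -0.90. In MYH low cells the MYOD1 and FOXO1 ranges did not overlap, and the PAX3 range overlapped both. In MYH high cells at day 7 all 3 ranges overlapped. There the same guides ran from -0.83 to -0.13 for MYOD1, -0.83 to 0.03 for PAX3 and -1.63 to 0.07 for FOXO1. Their medians in MYH high cells were -0.58, -0.48 and -0.43 in that order. These classes were chosen on the ratio to day 3, which the day 7 ratio shares.

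The sort itself, MYH high over MYH low, uses neither the day 3 nor the day 18 sample. The 30 PAX3 guides with a dropout value of -2 or lower had a median sort value of 0.67 (SD 0.30), and 26 of them lay above the control range of the sort, where 11.4% of the library did. The 10 such FOXO1 guides had 0.51 (SD 0.34), with 8 of 10 above the range. The 7 such MYOD1 guides had 0.01 (SD 0.18), with 0 of 7 above it. Among guides within the dropout range of the controls, PAX3 had a median sort value of 0.07, FOXO1 0.06 and MYOD1 0.11. The FOXO1 guides of the lower, middle and upper group of day 3 abundance had median sort values of 0.08, 0.20 and 0.21.

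The guides of each scanned gene carry running numbers, which the labels do not tie to a position in the gene. In blocks of 25 consecutive numbers the median dropout value ran from -1.14 to -0.52 for PAX3 (9 full blocks), from -0.96 to -0.17 for FOXO1 (14 full blocks) and from -1.12 to -0.58 for MYOD1 (7 full blocks). Every full block of PAX3 held 9 to 14 guides with a value of -1 or lower, while for FOXO1 the number ran from 2 to 10 and for MYOD1 from 4 to 14. In FOXO1 the extreme full blocks were numbers 126 to 150, with 6 of 25 guides depleted (24.0%), and 76 to 100, with 19 of 25 (76.0%). Of all FOXO1 guides 56.6% were depleted, and of the library 35.5%. Depleted guides of PAX3 were thus present in all blocks at a similar number, and those of FOXO1 less evenly. Whether the numbers follow the gene was not tested.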

How the data were processed

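The deposited values are the authors' raw counts of sequenced guide cassettes, with a single column in each file. The submitters' processing notes name MAGeCK and FastQC. The sources used here do not give their versions, the read trimming, the mismatches allowed or the build; guide sequences and coordinates were not used here.

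Counts were scaled to CPM over each sample's total. The log2 ratio took a pseudocount of 1 CPM and was centred on the median of 790 Neg_ctrl guides. Guides needed 10 counts over both samples, which removed 0. A target's value is the median over its guides. The control range is the 2.5th to 97.5th percentile of Neg_ctrl. With 1 sample per day no test was made; intervals are exact binomial (95%) over guides, and order-statistic intervals for medians. Every target is named. Single guides named are the 5 lowest and 3 highest of PAX3, FOXO1 and MYOD1, those next to the limit, the extreme controls, every guide of targets with 10 or fewer, and MYOD1_61, chosen after its values were seen. Members and lists were chosen with earlier results of these data known. The ratio of day 18 to MYH low cells and the abundance bands were added after the values were seen. Of 11 gene names, 10 matched a current symbol in the RefSeq table for GRCh38.p14. The procedure was tested on simulated counts. Alternatives were other centrings, pseudocounts, count minimums, summaries, limits and control sets. Software was scipy 1.17.1, pandas 2.3.3 and numpy 2.4.6 under Python 3.11.15.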

Additional observations from a re-analysis of the deposited data

How the results depend on the processing

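The medians of PAX3, FOXO1 and MYOD1 were below 0 under all 12 alternatives run for each. They ran from -0.97 to -0.61 for PAX3, -0.59 to -0.20 for FOXO1 and -0.83 to -0.55 for MYOD1. In the order PAX3, FOXO1, MYOD1, centred on all guides they were -0.68, -0.27 and -0.63, and with no centring -0.61, -0.20 and -0.55, in the same order of genes. FOXO1 had -0.59 by the mean over guides and -0.58 by summed CPM. With no centring 2 small sets were reversed, CDK9 at 0.0022 and hRosa at 0.050. Centring cannot change a share of depleted guides, since the limit moves with it. With the lowest Neg_ctrl guide as the limit PAX3 had 63.9%, FOXO1 43.4% and MYOD1 69.4%, and with the 0.5th percentile FOXO1 had 47.6%. By starting abundance FOXO1 had 34.5% in the lower and 74.8% in the upper of 3 equal groups, and MYOD1 71.0% in the lower and 87.1% in the middle. For POLR2A the share was 25.0% with either stricter limit. The cause was not tested. Controls restricted to HGLibA, neg or chr names, chosen after seeing the data, moved no median or share of the 3 genes beyond its interval. No paired analysis was possible because each day has 1 sample. Depth limits only the rarest guides.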
